A study of Homo sapiens with 4 samples.

Results

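The mitochondrial genome is transcribed inside the organelle, and its transcripts are described here in HT29 and HCT116 cells with and without lipopolysaccharide. Its members were chosen by position: every gene of the count table that the annotation places on the mitochondrial chromosome, which gave 37 of 61544 genes, namely 13 mRNA, 2 rRNA and 22 tRNA genes. HT29 and HCT116 are established human colorectal cancer cell lines. Each was cultured without addition, as the control, or with lipopolysaccharide (LPS), a lipid of the outer membrane of Gram-negative bacteria, at 1 ug/mL for 24 h as an in vitro model of intestinal inflammation. RNA-seq was done on 1 library per line and condition, 4 libraries in all, with no repeat culture, and no other allele or agent separates the groups. A difference between the LPS and the control library of a line therefore has no replicate check and no p-value. Its 95% intervals, exact Clopper-Pearson intervals, cover counting error only.

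Mitochondrial DNA is a circle, both strands of which are transcribed into long precursors. The tRNAs lie between most of the mRNAs and rRNAs, and cutting them out releases the other RNAs. All of the mRNAs encode subunits of the respiratory chain and the ATP synthase: MT-ND genes belong to complex I, which oxidises NADH, MT-CYB to complex III, MT-CO genes to complex IV, which reduces oxygen, and MT-ATP genes to the ATP synthase. The rRNAs and tRNAs serve the organelle's own ribosomes. The other subunits, and the polymerase, processing enzymes and translation factors, are made from nuclear genes and imported. On the reference strand called plus here lie 12 mRNA genes, both rRNA genes and 14 tRNA genes, and on the minus strand lie MT-ND6 and 8 tRNA genes. The library kit named in the labels is not the directional version, so reads from MT-ND6 or a minus-strand tRNA gene and reads from the precursor that crosses it in the other direction cannot be told apart.

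The sequences below, read from the hg38 reference, show the places where neighbouring genes share bases, the tRNA genes with the most counts and a nuclear copy. A read from shared bases cannot be given to a single gene with certainty. MT-ATP8 (chrM:8366-8572, plus strand, 207 bases) overlaps MT-ATP6 by 46 bases, shown in capitals.
MT-ATP8: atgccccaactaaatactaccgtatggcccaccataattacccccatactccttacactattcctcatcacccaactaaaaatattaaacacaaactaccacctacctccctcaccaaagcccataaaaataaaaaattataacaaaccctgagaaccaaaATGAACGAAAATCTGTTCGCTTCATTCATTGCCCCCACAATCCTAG
The junction of MT-ND4L and MT-ND4 (chrM:10740-10786, plus strand) has 7 bases that belong to both genes, in capitals.
MT-ND4L and MT-ND4 junction: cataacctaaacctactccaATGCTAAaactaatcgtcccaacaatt
The tRNA genes with the most counts are shown next as tRNAs, 5′ to 3′, with the anticodon in capitals. They are MT-TN (asparagine, chrM:5657-5729), MT-TC (cysteine, chrM:5761-5826), MT-TY (tyrosine, chrM:5826-5891) and MT-TP (proline, chrM:15956-16023) on the minus strand, and MT-TL1 (leucine, chrM:3230-3304) on the plus strand.
MT-TN: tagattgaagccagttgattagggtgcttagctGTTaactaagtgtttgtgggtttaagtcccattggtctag
MT-TC: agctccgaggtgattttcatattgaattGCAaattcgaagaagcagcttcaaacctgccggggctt
MT-TY: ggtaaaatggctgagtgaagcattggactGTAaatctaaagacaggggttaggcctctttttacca
MT-TP: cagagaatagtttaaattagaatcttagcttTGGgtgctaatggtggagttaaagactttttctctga
MT-TL1: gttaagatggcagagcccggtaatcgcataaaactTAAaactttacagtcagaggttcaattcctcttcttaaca
Between MT-TN and MT-TC lie 31 bases with no gene (chrM:5730-5760), the origin of light-strand replication. The longest inverted repeat within these 31 bases, 2 arms of 8 bases around a loop of 12, is in capitals. The search stopped at the edges of the gap, and the pairing runs on into MT-TC.
gap between MT-TN and MT-TC: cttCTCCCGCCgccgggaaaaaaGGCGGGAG
The last pair compares MT-ATP6 (chrM:8542-8701) with its nuclear pseudogene MTATP6P1 (chr1:633711-633870), both on the plus strand, over 160 bases in which 4 differ, in capitals. Over all 681 bases of MT-ATP6 the copy differs at 10.
MT-ATP6: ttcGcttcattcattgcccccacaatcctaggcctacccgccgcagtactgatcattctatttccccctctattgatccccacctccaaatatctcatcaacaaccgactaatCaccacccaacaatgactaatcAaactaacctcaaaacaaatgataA
MTATP6P1: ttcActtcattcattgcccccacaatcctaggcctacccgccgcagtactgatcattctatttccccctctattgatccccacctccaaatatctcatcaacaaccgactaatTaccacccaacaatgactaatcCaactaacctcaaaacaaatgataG

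Total counts ran from 19105058 to 21268959 per library. All 5 epithelial markers were present in each library and summed to 344321 and 352824 counts in HT29 libraries and to 115050 and 104055 in HCT116 libraries (EPCAM 4155 to 17033, KRT8 49872 to 219634). The 8 markers of other cell types summed to 125 and 95 counts against 2279 and 2046, with CD3E, COL1A2 and DCN at 0 in every library and PTPRC at 2 counts at most. COL1A1 gave 81 and 59 counts in the HT29 libraries against 2225 and 1999 in those of HCT116. Over all genes, the median log2 ratio of LPS to control was -0.0076 in HT29 and -0.0025 in HCT116, computed with TMM scaling and a prior count of 2 for the genes whose mean reached 1 CPM (counts per 1 M) in that line. Ribosomal protein genes took 4.61% (control) and 4.31% (LPS) of the HT29 counts and 4.73% and 4.67% of the HCT116 counts. Of RNAs kept in the nucleus, NEAT1 had ratios of 0.18 (HT29) and 0.23 (HCT116) on the log2 scale and MALAT1 0.06 and -0.021. RN7SL1, an RNA polymerase III transcript, had 0.44 and -0.60. The part of RNA quality and of RNA selection in the results was not tested.

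The mitochondrial genome gave a larger share of the counts in the LPS library of each line. The 37 genes had 715835 counts in untreated HT29, 893590 in LPS-treated HT29, 1066394 in untreated HCT116 and 1417501 in LPS-treated HCT116. These were 3.75% (95% interval 3.74 to 3.76), 4.29% (4.28 to 4.30), 5.01% (5.00 to 5.02) and 7.16% (7.15 to 7.17) of all counts. LPS-treated HCT116 was highest, and both HCT116 libraries lay above both HT29 libraries. After scaling, the sum was 1.13-fold higher with LPS in HT29 and 1.45-fold higher in HCT116. Fewer cells and less RNA per cell cannot be told apart in such bulk libraries, and neither can more mitochondrial genomes per cell and more transcripts per genome.

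Levels of different genes were compared as CPM per kilobase of gene. The mRNAs of complex IV and MT-ATP6, a membrane subunit of the ATP synthase, were at the top in every library, and MT-ATP8, its small partner subunit, was at the bottom. MT-CO1, the catalytic subunit of complex IV, stood at 6085 CPM per kilobase in untreated HT29, 6635 in LPS-treated HT29, 5835 in untreated HCT116 and 7916 in LPS-treated HCT116. MT-ATP6 stood at 5031, 5750, 6692 and 10969 in the same order. MT-CO1 led in untreated HT29, MT-CO3 in LPS-treated HT29 (6763) and MT-ATP6 in both HCT116 libraries. The levels of MT-CO1, MT-CO2 and MT-CO3 lay close together in untreated HT29 (6085, 5971 and 5850), and without replicates their order cannot be set against a spread. MT-ND5, the longest of the mRNAs, had the lowest level after MT-ATP8 among mRNAs, from 662.5 to 1528 CPM per kilobase, and MT-ND6 ran from 924 to 1604. MT-ATP8 had 108, 144, 183 and 227 CPM per kilobase. It shares part of its sequence with MT-ATP6, and the counting rule for reads lying in 2 genes is not given here. There were 154, 131, 121 and 159 counts of MT-ATP6 for each count of MT-ATP8.

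**Figure D1:**
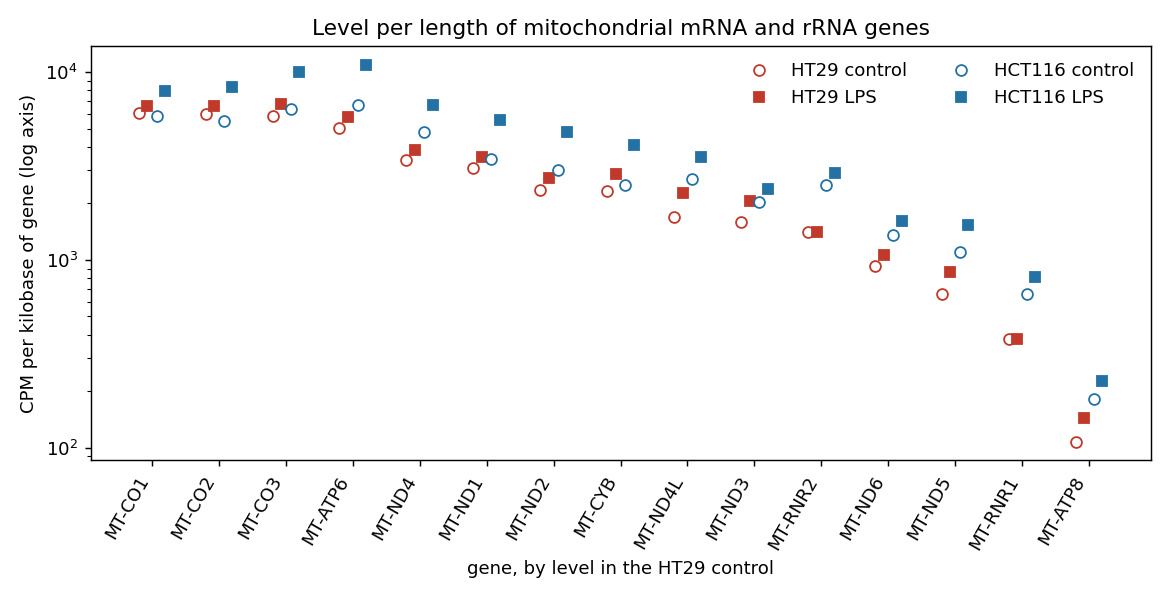
Level of the 13 mRNA and 2 rRNA genes in CPM per kilobase of gene (log axis) in each of the 4 libraries, with control libraries as open circles, LPS libraries as filled squares, HT29 in red and HCT116 in blue. Genes are ordered by untreated HT29, from MT-CO1 at 6085 down to MT-ATP8 at 108, and the HT29 symbols of both rRNA genes lie on top of each other.

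In HT29 all 13 mRNAs were a little higher in the LPS library, and in HCT116 they were higher by more. The median log2 ratio of the mRNAs was 0.21 in HT29 (range 0.12 to 0.43) and 0.48 in HCT116 (0.21 to 0.71). All 13 counting intervals lay above 0 in each line, compared with 15.9% of all 13201 genes measured in HT29 and 17.0% of 14337 in HCT116. These shares take in genes down to a mean of 1 CPM and are not matched to the mRNAs in counts. Counting intervals narrow as counts rise, and the mRNAs other than MT-ATP8 had 8750 counts or more in every library. The 13 also share libraries and precursors, so they are not independent. A log2 ratio above 0 alone was found in 48.2% and 49.5% of genes. Above 0.58, the threshold the study used for its arrays, lay 0 mRNAs in HT29, where 3.50% of all genes did, and 6 in HCT116, where 3.56% did. No mRNA lay below -0.58, where 2.70% of genes did in HT29 and 2.34% in HCT116. The log2 ratio was larger in HCT116 than in HT29 for 10 of the 13. With no residual degree of freedom for it, the contrast of both lines was not tested.

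Among complex I mRNAs, MT-ND1 had 53242 counts in untreated HT29, 67058 in LPS-treated HT29, 75065 in untreated HCT116 and 109674 in LPS-treated HCT116, and log2 ratios of 0.19 (0.18 to 0.21) and 0.68 (0.66 to 0.69). MT-ND2 had 44349, 56499, 70734 and 104277 counts and log2 ratios of 0.21 and 0.69. Both encode membrane subunits, and both were highest in LPS-treated HCT116. MT-ND4 had 85159, 104884, 149392 and 191212 counts, with log2 ratios of 0.16 and 0.48. MT-ND5 had 21649, 30918, 45092 and 57294 counts, with log2 ratios of 0.38 (0.35 to 0.40) and 0.47 (0.46 to 0.49). MT-ND4 and MT-ND5 encode subunits of the proton-pumping arm, and the ratio of MT-ND4 was the lower in HT29. MT-ND3 had 9925, 14180, 16034 and 17023 counts, with log2 ratios of 0.38 (0.34 to 0.41) and 0.21 (0.18 to 0.25). MT-ND4L had 9082, 13488, 18237 and 21660 counts, with log2 ratios of 0.43 (0.39 to 0.47) and 0.38 (0.35 to 0.40). For these small subunits the ratio was larger in HT29, unlike MT-ND1 and MT-ND2. MT-ND6, the complex I subunit encoded on the minus strand, had 8750, 11048, 16111 and 17429 counts, with log2 ratios of 0.20 (0.16 to 0.24) and 0.24 (0.21 to 0.27).

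MT-CYB, the cytochrome b of complex III, had 47759 counts in untreated HT29, 64914 in LPS-treated HT29, 64837 in untreated HCT116 and 96467 in LPS-treated HCT116, and log2 ratios of 0.30 (0.29 to 0.32) and 0.70 (0.69 to 0.72). In complex IV, MT-CO1 had 169201, 203142, 203526 and 252637 counts, the most of any member, and log2 ratios of 0.12 (0.12 to 0.13) and 0.44 (0.43 to 0.45). MT-CO2, which takes electrons from cytochrome c, had 73655, 89910, 84922 and 117700 counts, with 0.15 and 0.60. MT-CO3 had 82709, 105272, 113116 and 163187 counts, with 0.21 and 0.66. In HT29 the ratios of MT-CO1 and MT-CO2 were the lowest of the mRNAs. For the ATP synthase, MT-ATP6 had 61789, 77743, 103086 and 154605 counts, with log2 ratios of 0.19 (0.18 to 0.21) and 0.71 (0.70 to 0.72). MT-ATP8 had 402, 592, 855 and 971 counts, with 0.42 (0.23 to 0.61) and 0.31 (0.18 to 0.45). In HCT116 the interval of MT-ATP8 did not reach that of MT-ATP6. Summed by complex, the log2 ratios in HT29 and HCT116 were 0.22 and 0.54 for the complex I mRNAs, 0.15 and 0.54 for complex IV, and 0.19 and 0.71 for the ATP synthase.

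The rRNA genes had log2 ratios at 0 in HT29, below those of all mRNAs, and above 0 in HCT116. MT-RNR1, the small ribosomal RNA, had 6539 counts in untreated HT29, 7195 in LPS-treated HT29, 14225 in untreated HCT116 and 16099 in LPS-treated HCT116. Its log2 ratio was -0.00085 (-0.05 to 0.05) in HT29 and 0.31 (0.27 to 0.34) in HCT116. MT-RNR2, the large ribosomal RNA, had 39821, 43823, 88115 and 93980 counts, and its log2 ratio was -0.00061 (-0.02 to 0.02) in HT29 and 0.22 (0.21 to 0.23) in HCT116. In HT29 both intervals held 0, and the sign of both ratios turned under other scalings of the libraries, where they reached 0.01. There were 14.4 mRNA counts for each rRNA count in untreated HT29, 16.5 in LPS-treated HT29, 9.39 in untreated HCT116 and 11.8 in LPS-treated HCT116. That quotient does not depend on the scaling, and it was higher in the LPS library of each line. MT-RNR2 had 6.09 counts for each of MT-RNR1 in both HT29 libraries, 6.19 in untreated HCT116 and 5.84 in LPS-treated HCT116. Whether RNA with a poly(A) tail was selected or rRNA was removed is not given in the sources used here, and what part this has in the rRNA counts is unknown.

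**Figure D2:**
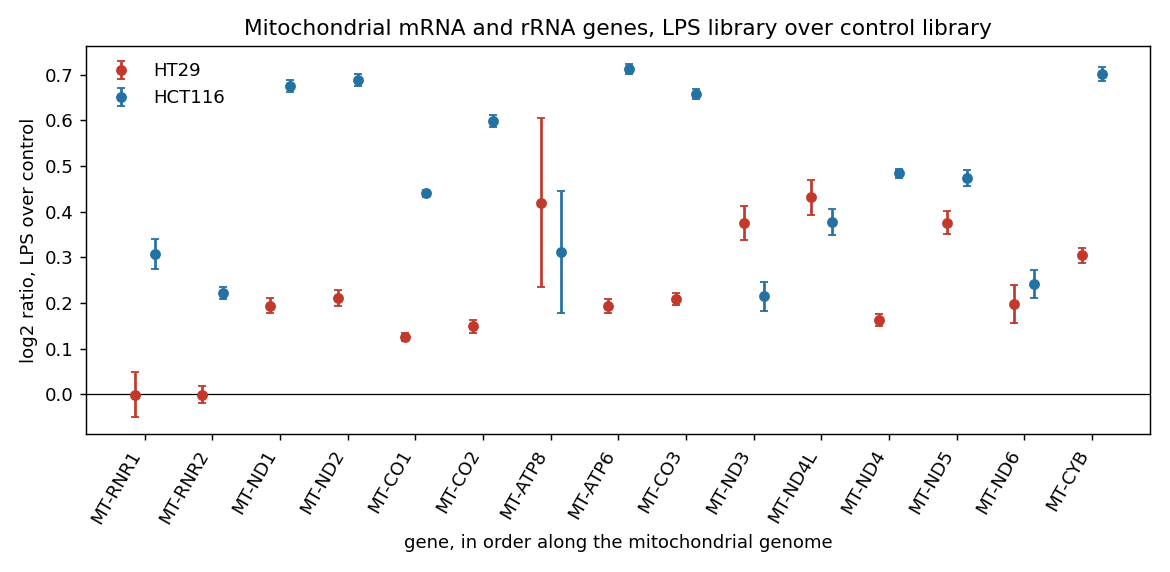
Log2 ratios, LPS over control library, of the 13 mRNA and 2 rRNA genes, in the order of the mitochondrial genome, with HT29 in red and HCT116 in blue and bars for the 95% counting interval. Every mRNA lies above 0 in each line, both rRNA genes lie at 0 in HT29, and MT-ATP8, MT-ND3 and MT-ND4L are the mRNAs with the larger ratio in HT29.

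The shortest mRNA genes had higher ratios than most of the others in HT29 and lower ones in HCT116. The 4 genes under 600 bases (MT-ATP8, MT-ND4L, MT-ND3 and MT-ND6) had a median log2 ratio of 0.40 in HT29 and 0.28 in HCT116. The 9 longer genes had 0.19 and 0.66. In HCT116 the short genes ranged from 0.21 to 0.38 and the longer ones from 0.44 to 0.71, so the ranges did not overlap. In HT29 they did, from 0.20 to 0.43 and from 0.12 to 0.38. The limit of 600 bases was set after the values were seen, so this split is a description with no test. Across the 13 mRNAs, which share libraries and precursors, Spearman's rho of log2 ratio with gene length was -0.46 in HT29 and 0.41 in HCT116, and without MT-ATP8 and MT-ND4L, the shortest mRNA genes, it was -0.12 and 0.10. The relation with length thus rested largely on these short genes. With GC content rho was -0.48 and 0.58. Nuclear protein-coding genes that averaged 20 CPM or more had medians of -0.13 (10 genes under 600 bases), -0.10 (600 to 2000 bases) and -0.012 (2000 bases or more) in HT29, and of -0.04, -0.03 and -0.012 in HCT116. The part of gene length, base composition and fragment size in the split was not tested.

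**Figure D3:**
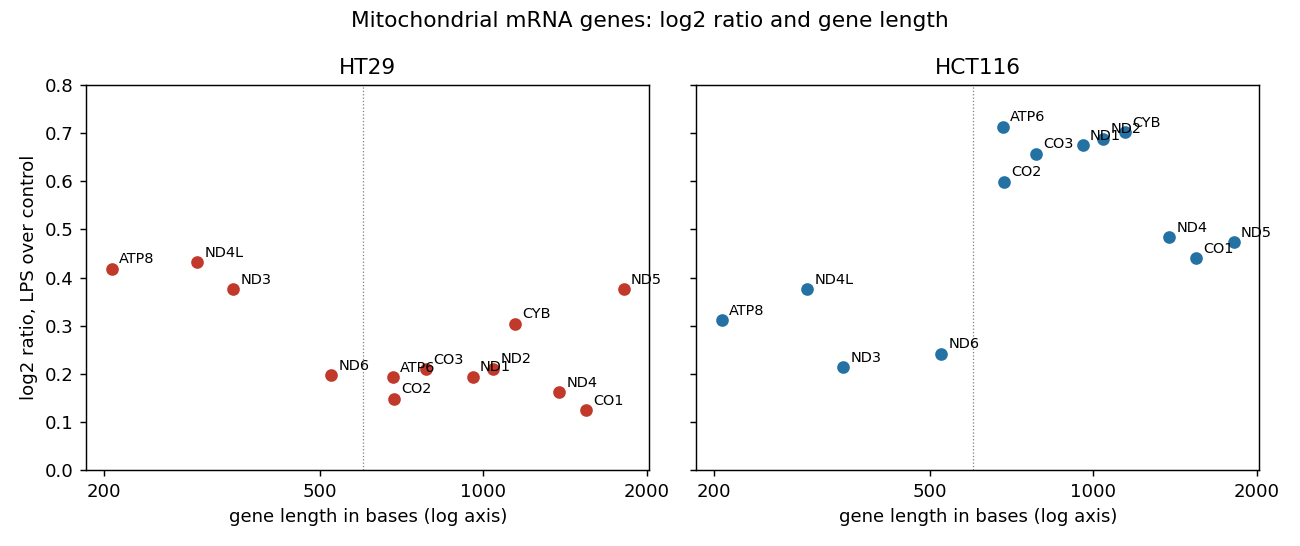
Log2 ratio of LPS to control for the 13 mRNA genes against gene length in bases (log axis), HT29 on the left and HCT116 on the right, with a line at 600 bases. In HCT116 the 4 genes left of the line reach 0.38 at most and the 9 to the right start at 0.44.

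The tRNA genes had few counts, and those were unevenly spread. Together the 22 genes had 1804 counts in untreated HT29, 2924 in LPS-treated HT29, 3047 in untreated HCT116 and 3286 in LPS-treated HCT116. The 8 minus-strand genes held 86.3% (84.6 to 87.8) of them in untreated HT29, 86.7% (85.4 to 87.9) in LPS-treated HT29, 82.9% (81.6 to 84.3) in untreated HCT116 and 80.8% (79.4 to 82.1) in LPS-treated HCT116. Free tRNAs are too short for most mRNA libraries, and whether these counts are tRNAs or uncut precursors was not tested. By the filter of 1 CPM, 8 tRNA genes were measured in HT29 and 11 in HCT116, and 14 and 11 were not.

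MT-TC had 513 counts in untreated HT29, 828 in LPS-treated HT29, 1003 in untreated HCT116 and 998 in LPS-treated HCT116, with log2 ratios of 0.55 (0.39 to 0.71) and 0.12 (-0.01 to 0.25). MT-TN had 388, 813, 512 and 517 counts, with 0.93 (0.75 to 1.11) and 0.14 (-0.04 to 0.32). MT-TY had 188, 266, 445 and 478 counts, with 0.36 (0.09 to 0.64) and 0.23 (0.04 to 0.42). These neighbours flank the replication origin shown above, and in HCT116 the intervals of MT-TC and MT-TN held 0. A nuclear copy matches MT-TN over all 73 bases with 0 differences, and MT-TC and MT-TY with 1 difference each. The part of reads shared with this copy in their counts was not tested. MT-TP, the last gene before the control region, had 454, 601, 468 and 546 counts, with 0.27 (0.09 to 0.44) and 0.35 (0.17 to 0.53). MT-TL1, which follows MT-RNR2, had 145, 200, 248 and 410 counts, with 0.32 (0.01 to 0.64) and 0.85 (0.62 to 1.09). MT-TL1 was thus highest in LPS-treated HCT116, where MT-TN was not.

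MT-TV, the valine tRNA between the rRNA genes, had 10, 21, 22 and 57 counts in untreated HT29, LPS-treated HT29, untreated HCT116 and LPS-treated HCT116, and a log2 ratio of 1.41 (0.77 to 2.28) in HCT116. MT-TR had 8, 37, 33 and 18 counts, with 1.86 (0.95 to 3.38) in HT29 and -0.69 (-1.66 to 0.12) in HCT116. MT-TH had 26, 44, 75 and 54 counts, with 0.59 (-0.11 to 1.38) and -0.33 (-0.88 to 0.18). MT-TR and MT-TH, the arginine and histidine tRNAs on either side of MT-ND4L and MT-ND4, had opposite signs in the lines, although only the HT29 interval of MT-TR left out 0. MT-TE, the glutamate tRNA beside MT-ND6, had 8, 20, 87 and 91 counts, with 0.19 (-0.25 to 0.63) in HCT116. MT-TT, the threonine tRNA, had 23, 30, 13 and 14 counts, with 0.23 (-0.59 to 1.09) in HT29. MT-TI had 9, 23, 38 and 19 counts, with -0.81 (-1.75 to -0.04) in HCT116. MT-TM, the methionine tRNA, had 6, 4, 33 and 12 counts, with -1.20 (-2.42 to -0.34) in HCT116. In HCT116, MT-TI, MT-TM and MT-TR passed the filter on a mean of 1 CPM only through the control library and MT-TV only through the LPS library, and in HT29 MT-TR passed only through the LPS library. A gene that passes in this way had to differ, so their ratios are a description and are left out of the counts by size that follow. Of the 5 tRNA genes with over 5 CPM in every library, MT-TN lay above 0.58 in HT29 and MT-TL1 in HCT116, and 0 lay below -0.58. MT-TH, with 1.44 and 2.22 CPM in the HT29 libraries, also lay above it there, at 0.588. Of all genes, 3.50% lay above 0.58 in HT29 and 3.56% in HCT116. Those shares are for the filter of 1 CPM, so they do not match a limit of 5 CPM. The remaining tRNA genes, MT-TF, MT-TQ, MT-TW, MT-TA, MT-TS1, MT-TD, MT-TK, MT-TG, MT-TS2 and MT-TL2, did not pass the filter in either line and had 0 to 24 counts.

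**Figure D4:**
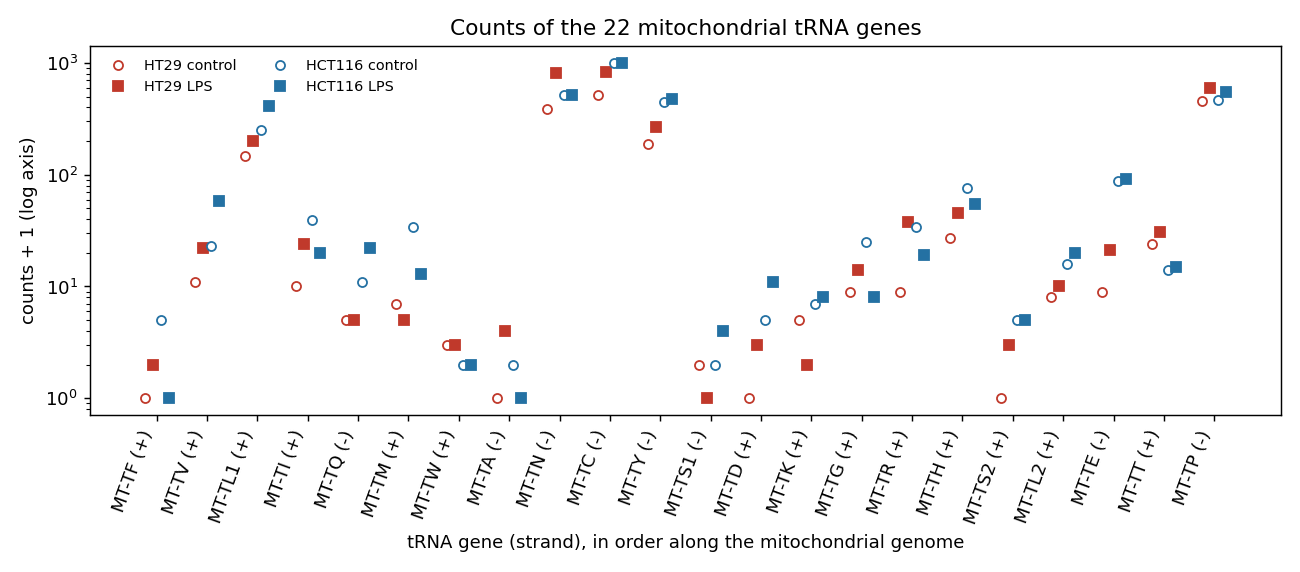
Counts plus 1 (log axis) of the 22 tRNA genes in the 4 libraries, in the order of the mitochondrial genome with the strand in brackets, with control libraries as open circles, LPS libraries as filled squares, HT29 in red and HCT116 in blue. MT-TN, MT-TC, MT-TY, MT-TP and MT-TL1 had 145 counts or more in every library, and the other genes had 91 or fewer.

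Within the mitochondrial counts the rRNA share was smaller in the LPS library of each line. It was 6.48% (6.42 to 6.53) in untreated HT29, 5.71% (5.66 to 5.76) in LPS-treated HT29, 9.60% (9.54 to 9.65) in untreated HCT116 and 7.77% (7.72 to 7.81) in LPS-treated HCT116. MT-ND6 took 1.22% (1.20 to 1.25), 1.24% (1.21 to 1.26), 1.51% (1.49 to 1.53) and 1.23% (1.21 to 1.25) in the same order. Its share was lower with LPS in HCT116, and in HT29 the intervals overlapped. The minus-strand tRNA genes took 0.217% (0.207 to 0.228), 0.284% (0.273 to 0.295), 0.237% (0.228 to 0.246) and 0.187% (0.180 to 0.194). Their share was higher with LPS in HT29 and lower in HCT116. The 12 plus-strand mRNAs took 92.0%, 92.7%, 88.6% and 90.8%. These shares do not depend on how the libraries were scaled.

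**Figure D5:**
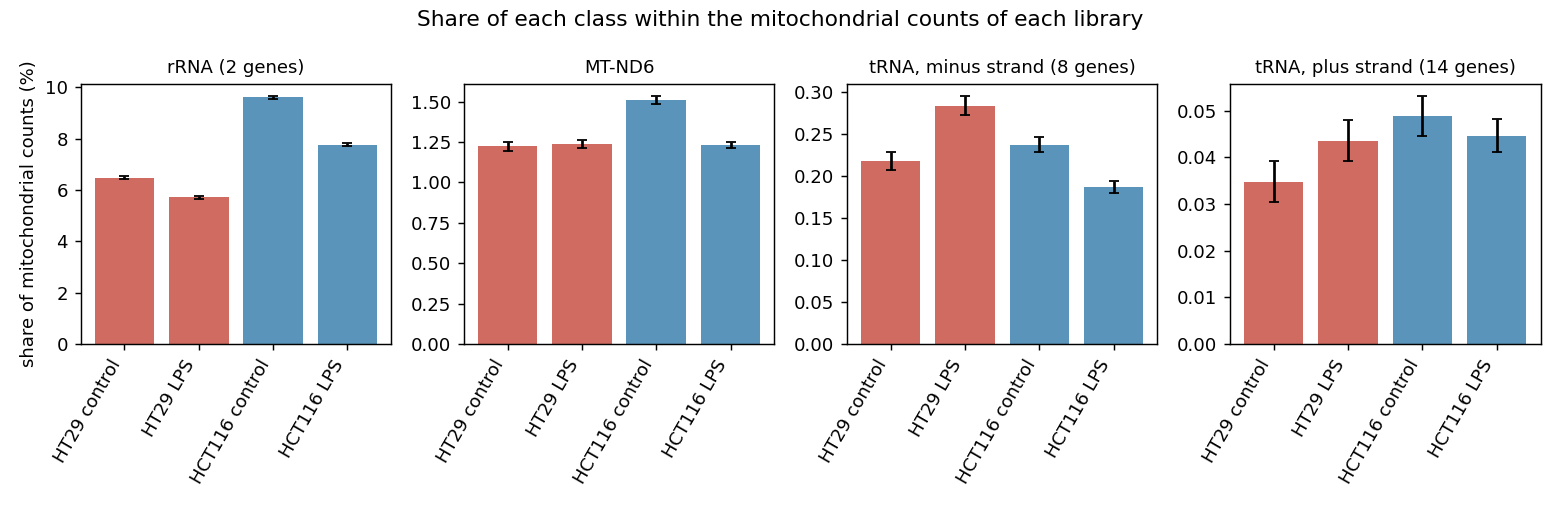
Share of the mitochondrial counts (%) taken by the 2 rRNA genes, MT-ND6, the 8 minus-strand and the 14 plus-strand tRNA genes in each library, with bars from 0, HT29 in red, HCT116 in blue and error bars for the 95% Clopper-Pearson interval. The rRNA bars stand at 6.48% and 5.71% in HT29 and at 9.60% and 7.77% in HCT116, control before LPS.

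An effect of LPS common to both lines was tested over the 4 libraries with the cell line as a block, so that the 2 lines stood in for replicates, with 1 residual degree of freedom. By the quasi-likelihood test of edgeR, adjusted after Benjamini and Hochberg over 14516 genes, 3 members rose and 0 fell of 26 tested (11.5%), compared with 0.220% of all genes called in either direction. The log2 fold change was 0.40 for MT-ND4L (standard error 0.071, adjusted p = 0.010), 0.42 for MT-ND5 (0.081, adjusted p = 0.024) and 0.50 for MT-CYB (0.099, adjusted p = 0.032) in this edgeR test. All of them were higher in both lines. At an unadjusted p under 0.05 there were 18 members, all higher, and 7.58% of all genes. These were all 13 mRNAs, MT-TV, MT-TL1, MT-TN, MT-TC and MT-TP. MT-TV had 0.55 and 0.97 CPM in the HT29 and HCT116 controls and passed the filter only through the LPS libraries. Its rise is thus no independent support. After MT-ND4L, MT-ND5 and MT-CYB came MT-ND2, with a log2 fold change of 0.45 and an adjusted p of 0.092 in edgeR's test. In the same test the rRNA genes had 0.16 (adjusted p = 0.68) and 0.11 (adjusted p = 0.87). The calls did not hold with DESeq2's size factors in edgeR, where the adjusted p of MT-ND4L, MT-ND5 and MT-CYB was 0.052, 0.088 and 0.16, or without the block, where it was 1.0. DESeq2 itself called 5 members higher (MT-ND3, MT-ND4L, MT-ND5, MT-ND6 and MT-CYB) and 0 lower of the 14 members to which it gave an adjusted p, compared with 4.37% of all 2978 such genes.

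Between the lines, with LPS as the block, 18 members were higher in HCT116 and 1, MT-TN, was lower of 26 tested (73.1%), a share near that of all genes, 76.6%. Among the 18, MT-TE and MT-TV averaged under 1 CPM in HT29 and passed the filter only through HCT116. Their higher level in HCT116 is thus no independent support. The rRNA genes were among those that differed, with log2 fold changes of HCT116 to HT29 of 0.95 for MT-RNR1 (standard error 0.077, adjusted p = 6.5e-10) and 0.93 for MT-RNR2 (0.091, adjusted p = 1.2e-08) in edgeR's test. Of the mRNAs, 11 of 13 were higher in HCT116. MT-CO1 and MT-CO2, at 0.10 each, did not pass (adjusted p = 0.43 and 0.38 in edgeR's test).

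Some members have near-identical sequence in the nuclear genome, where fragments of mitochondrial DNA were inserted in evolution. At 98% identity or more over at least 150 bases, 3 such places were found. The longest lies at chr1:629081-634924 (plus strand, hg38) and matches 5846 aligned bases at 98.5% identity, from MT-ND1 to MT-CO3. It covers over 50% of 17 members, with 6 mRNA genes and MT-TN, MT-TC and MT-TY among them. At these limits of identity and length 18 members have no copy, although less similar or shorter copies can exist, such as MTND4P12 of MT-ND4. The 6 mRNAs with such a copy (MT-ND2, MT-CO1, MT-CO2, MT-ATP8, MT-ATP6 and MT-CO3) had a median log2 ratio of 0.20 in HT29 and 0.63 in HCT116, and the 7 others had 0.30 and 0.47. Both sets were above 0 in each line.

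The nuclear pseudogenes were counted as well, and of 404 in the annotation 38 had a count and 4 had over 100. MTATP6P1, the copy of MT-ATP6 shown above, had 3330 counts in untreated HT29, 4216 in LPS-treated HT29, 6170 in untreated HCT116 and 5341 in LPS-treated HCT116. Its log2 ratio was 0.20 (0.14 to 0.27) in HT29 and -0.08 (-0.13 to -0.03) in HCT116, where that of MT-ATP6 was 0.71. It had 5.39%, 5.42%, 5.99% and 3.45% of the counts of MT-ATP6. MTND2P28, the copy of MT-ND2, had 1752, 3042, 2843 and 5149 counts, with log2 ratios of 0.66 (0.57 to 0.74) and 0.98 (0.92 to 1.05). It rose in edgeR's quasi-likelihood test of LPS, by 0.83 on the log2 scale (standard error 0.076, adjusted p = 7.7e-06). MTCO1P12 had 286, 418, 432 and 540 counts and MTND4P12 had 52, 53, 21 and 26, neither of which passed, and MTND1P23 had 6, 0, 5 and 4. Reads of a gene and its copy cannot be told apart with certainty, and the treatment of reads with several alignments is not stated in the labels or the paper.

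The nuclear genes that serve mitochondria had medians near 0 in both lines, with more genes below 0 than above. Of 204 genes in 12 lists, 194 were tested and edgeR's quasi-likelihood test called 0, with 2 higher (COX8A and ATP5MF) and 17 lower at an unadjusted p under 0.05, 9.79% of them compared with 7.58% of all genes. Of those measured, 66 of 194 had a log2 ratio above 0 in HT29 (34.0%, compared with 48.2% of all genes) and 82 of 192 in HCT116 (42.7%, compared with 49.5%). DESeq2 called 2 of them lower (GRSF1 and ATP5F1A, named after their values were seen). The genes of mitochondrial transcription (10 tested) had a median log2 ratio of -0.026 in HT29 and -0.08 in HCT116. TFAM, which packs mitochondrial DNA and starts its transcription, had 2112 counts in untreated HT29, 2285 in LPS-treated HT29, 1381 in untreated HCT116 and 1061 in LPS-treated HCT116, with log2 ratios of -0.025 (-0.11 to 0.06) and -0.25 (-0.37 to -0.14). TFAM was thus lower with LPS in HCT116, but edgeR's quasi-likelihood test of LPS did not call it (adjusted p = 0.76). Its part in the mitochondrial counts was not tested. TEFM, an elongation factor of mitochondrial transcription, had 202, 170, 180 and 170 counts, with -0.38 (-0.69 to -0.09) and 0.05 (-0.27 to 0.36). MTERF2 had 100, 130, 146 and 90 counts, with 0.24 (-0.15 to 0.63) and -0.56 (-0.97 to -0.18).

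The genes of mitochondrial DNA upkeep (17 tested) had medians of 0.035 in HT29 and -0.015 in HCT116, with EXOG, a mitochondrial nuclease, at 0.09 and -0.54, DNA2, a nuclease and helicase, at 0.07 and -0.53, and SLC25A36 at 0.22 and -0.16. The genes of RNA processing, stability and decay (36 tested) had medians of -0.06 and 0.00049. Among them, PTCD1 had 132, 136, 98 and 173 counts, with log2 ratios of -0.09 (-0.45 to 0.26) and 0.93 (0.58 to 1.32), NSUN3, which methylates a mitochondrial tRNA, had -0.14 and -0.49, and MRM3, which methylates mitochondrial rRNA, -0.32 and -0.07. PTCD1 was past 0.58 in HCT116. The translation factors (13 tested) had medians of 0.019 and 0.07, with MTRF1 at 0.21 and 0.33, MTRF1L at 0.29 and 0.09 and the elongation factor GFM1 at -0.17 and -0.24.

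The nuclear-encoded subunits of the same complexes had medians from -0.15 to 0.022. For complex I (34 tested) the medians were -0.11 in HT29 and -0.07 in HCT116, compared with 0.22 and 0.54 for the sum of its mitochondrial mRNAs. For complex III (9 tested) they were -0.15 and -0.0095, for complex IV (12 tested) -0.14 and 0.022 and for the ATP synthase (18 tested) -0.09 and -0.029. NDUFA13 of complex I had 36, 59, 162 and 210 counts, with log2 ratios of 0.55 (-0.05 to 1.21) and 0.50 (0.20 to 0.81), and NDUFC2 had -0.04 and -0.49, and NDUFC1 -0.0024 and -0.40. UQCR11, UQCR10 and UQCRFS1 of complex III had -0.36, -0.18 and -0.17 in HT29 and -0.0095, 0.17 and 0.0011 in HCT116. COX8A of complex IV had 2811, 3123, 1775 and 2113 counts, with 0.013 and 0.38, while COX6C had -0.19 and -0.26 and COX6A1 -0.25 and 0.17. ATP5MG of the ATP synthase had 632, 535, 525 and 411 counts, with -0.38 (-0.55 to -0.21) and -0.22 (-0.41 to -0.04), while ATP5MF had 0.16 and 0.37 and ATP5F1E 0.03 and -0.34. Across the 73 nuclear subunits tested in the 4 lists, edgeR's test called 0, with 2 higher and 12 lower at an unadjusted p under 0.05 (19.2%, compared with 7.58% of all genes), and DESeq2 called 1, ATP5F1A, lower. A log2 ratio above 0 was found for 18 of the 73 in HT29 (24.7%) and 27 in HCT116 (37.0%).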

How the data were processed

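The authors deposited 1 table of raw gene counts covering 4 libraries. The submitters' processing notes name cutadapt 1.9, Trimmomatic 0.39, HISAT2 2.1.0 (hg38) and featureCounts 2.0.1. Settings for strand, several alignments and overlapping genes, and the annotation release, could not be taken from the labels or the paper. Of the 61544 genes, 61399 received a symbol from GENCODE 44, all 37 mitochondrial genes among them. No column belonged to no sample.

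Log2 ratios used TMM and a prior count of 2 in edgeR 4.0.16 (limma 3.58.1, R 4.3.3), for genes averaging 1 CPM or more in a line, beside 95% Clopper-Pearson intervals without the prior count. LPS and cell line were tested with edgeR's quasi-likelihood test and Benjamini-Hochberg adjustment at 0.05. The paper used edgeR. DESeq2 1.42.0 was an alternative. Nuclear copies were found with BLAST 2.17.0. Only edgeR's test of LPS was run on simulated data first, with the same effect set in both lines. The line test and DESeq2 were not simulated.

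The members and lists were chosen with earlier results of these data known. Named were every mitochondrial gene with a count, the 3 largest absolute log2 ratios of each list among genes averaging 5 CPM or more, and the 5 nuclear pseudogenes with the most counts. Separate cultures per library are not stated. In each main test the 1 residual degree of freedom holds how far the LPS difference of a gene disagrees between the lines. The p-values thus rest on that disagreement in these 4 libraries, moderated over all genes, and not on a spread between repeat cultures.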

Additional observations from a re-analysis of the deposited data

Results flagged for a closer look

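Among genes averaging 1 CPM or more in both lines, log2 ratios of LPS to control had opposite signs in HT29 and HCT116 for 4 members and 2 nuclear pseudogenes. With 1 library per condition, none of these differences was tested, and each is given as the HCT116 ratio minus the HT29 ratio. It was 0.31 for MT-RNR1 and 0.22 for MT-RNR2, whose HT29 ratios lay at 0 within counting error. It was -2.54 for MT-TR (8, 37, 33 and 18 counts in untreated HT29, LPS-treated HT29, untreated HCT116 and LPS-treated HCT116) and -0.92 for MT-TH (26, 44, 75 and 54 counts). MT-TR passed the filter only through the LPS library in HT29 and only through the control in HCT116, so the filter fixed its opposite signs. The difference was -0.28 for MTATP6P1, and both of its intervals left out 0. It was 0.51 for MTND4P12 (52, 53, 21 and 26 counts), and both of its intervals held 0. In HCT116, MTND4P12 reached 1 CPM only in the LPS library. Over all genes, 48.2% had a ratio above 0 in HT29 and 49.5% in HCT116. The share of all genes with opposite signs is not given here.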

How the results depend on the processing

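No paired analysis was possible because each condition has 1 library, so that no replicate number links further pairs beside the cell line, which is already the block, and leaving out a library was not run since it leaves the test of LPS no residual degree of freedom. The number of mitochondrial genes that rose in that test (3) was 0 with DESeq2's size factors and 0 without the block, 5 with TMM over nuclear genes, 12 with no filter, 10 with a minimum of 5 CPM and 5 in DESeq2. The share of all genes called is given only for the main test (0.220%) and for DESeq2 (4.37%). The counts under the other settings therefore have no background to be read against. The 1 gene lower in HCT116 than in HT29, MT-TN, was lost, leaving 0, with DESeq2's size factors, library size alone and DESeq2. The median mRNA log2 ratio was 0.22 in HT29 with library size alone and 0.22 with TMM over nuclear genes, 0.21 with TMM within the line, and 0.46 in HCT116 with library size alone. Above 0.58 in HT29 lay 10 genes with no filter and 1 with a minimum of 5 CPM, and 2 lay below -0.58 with no filter. In HCT116, 5 lay below with no filter and 0 with a minimum of 5 CPM. The shares of all genes past 0.58 under these filters are not given here, so these counts have no background. With no filter they take in tRNA genes with few or 0 counts in a library. At a threshold of 1, 1 lay above in each line and 1 below in HCT116. These were MT-TR in HT29 and MT-TV and MT-TM in HCT116. Each passed the filter only through 1 library of that line and so had to differ. The mitochondrial share, in untreated HT29, LPS-treated HT29, untreated HCT116 and LPS-treated HCT116, was 3.60%, 4.15%, 4.68% and 6.83% among protein-coding genes, 3.93%, 4.48%, 5.27% and 7.51% of a total without ribosomal protein and histone genes, and 3.50%, 4.04%, 4.53% and 6.60% without the rRNA genes. Among the 20 genes without a nuclear copy over 50% of their length, the rRNA share was 16.4%, 14.2%, 21.0% and 17.7%. Of 49 per-gene ratios, 2 changed sign under any of 6 alternatives, those of MT-RNR1 and MT-RNR2 in HT29. The cause of these changes was not tested.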

Other observations

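Nuclear genes of mitochondrial upkeep outside gene expression were also measured. Regulators of mitochondrial biogenesis (8 tested) had median log2 ratios of LPS to control of -0.0098 in HT29 and -0.08 in HCT116. PPARGC1B, a coactivator of biogenesis, had 156 counts in untreated HT29, 219 in LPS-treated HT29, 450 in untreated HCT116 and 358 in LPS-treated HCT116, with log2 ratios of 0.35 (0.05 to 0.66) and -0.20 (-0.41 to 0.0017). GABPA and GABPB1, subunits of a factor that binds many such genes, had -0.06 and -0.18 in HT29 and -0.19 and -0.08 in HCT116. Stress response genes (18 tested) had medians of -0.03 and 0.04. ASNS, asparagine synthetase, with 19 and 26 counts in HT29, had 0.29 (-0.60 to 1.25) and 0.44 (0.13 to 0.78). DDIT3, a stress transcription factor, had 0.39 (-0.01 to 0.81) and 0.23 (-0.12 to 0.59). OMA1, a mitochondrial protease, had 0.20 (-0.13 to 0.54) and 0.34 (0.11 to 0.58). The HT29 intervals of all of them held 0, as did that of DDIT3 in HCT116.

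Mitophagy genes (10 tested) had medians of -0.04 and -0.020. BNIP3, a receptor for mitophagy, had 36, 75, 611 and 456 counts in the same order, with log2 ratios of 0.89 (0.33 to 1.54) in HT29 and -0.29 (-0.47 to -0.12) in HCT116. Its relative BNIP3L had 206, 160, 1082 and 841 counts, with -0.50 and -0.23, and the kinase PINK1 had -0.16 and 0.29. Genes that sense mitochondrial RNA or DNA or let it out (9 tested) had medians of -0.029 and -0.03, with the RNA sensor IFIH1 at -0.18 and -0.43, the pore-former BAK1 at -0.0045 and 0.24 and the adaptor MAVS at 0.20 and -0.03. In these 4 lists edgeR's quasi-likelihood test of LPS called no gene and DESeq2 called none. At an unadjusted p under 0.05, 0 were higher and 3 lower of 45 tested (6.67%, compared with 7.58% of all genes).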
